A study of Drosophila melanogaster with 9 samples.

Results

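The nuclear-encoded respiratory chain genes of the fly head were the 62 genes whose FlyBase symbol begins with ND-, UQCR-, COX4 to COX8 or ATPsyn, or is SdhA, SdhB, SdhC or SdhD, and which had 10 or more reads in at least 3 libraries, of 17558 genes listed. They comprised 32 genes of complex I (NADH dehydrogenase), 4 of complex II (succinate dehydrogenase), 6 of complex III (the cytochrome bc1 complex), 9 of complex IV (cytochrome c oxidase) and 11 of complex V (ATP synthase). The respiratory chain sits in the inner mitochondrial membrane. Complexes I and II pass electrons from NADH and succinate to ubiquinone, complex III passes them to cytochrome c and complex IV to oxygen, while complexes I, III and IV pump protons that drive ATP synthesis by complex V. All complexes other than II also hold subunits encoded by the mitochondrial genome, so most of the chain is assembled from products of both genomes. Neurons, photoreceptors and muscle, all present in the head, are known for a high demand for respiratory ATP.

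The libraries were made from poly(A) RNA of heads of adult female Drosophila melanogaster, aged 1 to 2 days and raised at 25 °C and 60% humidity. Each of 3 genotypes had 3 libraries: a control, and carriers of an Ime4 allele on 1 chromosome (heterozygous) or on both (homozygous). Ime4 (Mettl3 in the annotation) encodes the catalytic subunit of the enzyme that methylates adenosine in messenger RNA (m6A). The labels name neither the allele nor the genetic background of the controls. They also do not state whether the triplicates were separately raised flies, so a p-value here reflects only how far these libraries spread, which may be technical. Depth was 2730289 to 4272550 reads assigned to genes. Mettl3 (3R:24032157-24034257) had read counts of 17, 19 and 18 in control heads, 8, 13 and 16 in heterozygous heads and 3, 3 and 2 in homozygous heads. Homozygous and control libraries did not overlap (log2 fold change -3.00 ± 0.45 SE, edgeR adjusted p = 5.56e-04). All 9 neuron markers and all 13 photoreceptor markers had reads, with summed levels of 8589 to 12952 and 22140 to 30923 CPM (counts per 1e6 reads after TMM scaling of library sizes). Some libraries stood apart: homozygous replicates 1 and 2 held digestive tract transcripts and control replicate 3 held ovary transcripts, with values given beside the results below, and counts are given with and without these libraries. Levels below are CPM, averaged per group as mean ± SD (n = 3), and differences are log2 fold changes ± SE.

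A total of 84 genes matched the symbols, and 22 of them were under the read limit. Of these, 20 were paralogs whose names end in L or L and a digit, each with at most 10 reads over all 9 libraries and 4 of them with none. COX7AL2 was the only 1 of the 21 such paralogs to pass. The other two were ND-B8, with 36 reads in all and 0 to 8 per library, and ND-MNLL, with 0 reads. The exons of ND-MNLL lie wholly inside those of CG45089 on the same strand, and CG45089 also had no read. Reads that fit more than 1 gene were counted apart as ambiguous (1.105% to 1.607% of reads). These 0 reads therefore need not show absence of expression, which was not tested. The member nearest the limit was ND-MWFE with 579 reads in all, and the member with most reads was ATPsynC with 152967. Every member had 10 or more reads in all 9 libraries and all 62 were tested. The 15 mitochondrially encoded genes on the list were at 0 in every library, which is not read here as absence of their RNA. The nuclear subunits could therefore not be set beside their mitochondrially encoded partners. The strand setting of the authors' counting is not given in the sources used here, and 12 members share more than 10% of their exon length with exons of another gene. Their counts may thus lack reads that fit both genes, or hold reads of that gene. The largest such share was in UQCR-14, which lies wholly under CG32576 on the opposite strand.

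Levels per length spanned a wide range in complexes I and V, from 21.5 to 643 and from 34.1 to 2558 CPM per kb of exon, and a narrow one in complex II, from 58.5 to 106. ATPsynC, the subunit of the proton-driven ring of ATP synthase, was highest of all at 2558 CPM per kb of exon. ATPsynbeta, the catalytic subunit of the F1 head, followed at 843 CPM per kb. ND-MLRQ, whose mammalian counterpart NDUFA4 is now counted with complex IV, stood at 643 CPM per kb and COX6B at 622. The lowest were ND-MWFE at 21.5, ATPsyndelta at 34.1 and ND-13A at 44.8 CPM per kb. Exon length here joins all annotated exons of a gene, and that of ATPsyndelta, 3817 bases, was the longest of the members. By CPM alone ATPsyndelta (110, 132 and 148 in control, heterozygous and homozygous heads) stood above ATPsynG (79.6, 122 and 108). Median levels rose from 74.95 CPM per kb in complex II and 77.9 in complex I to 142 in complex III, 183 in complex IV and 218 in complex V. Summed over members, complex I held 3634 ± 142 CPM in the control, 3981 ± 249 CPM in the heterozygous and 3895 ± 797 CPM in the homozygous group (SD, n = 3). Complex IV held 1259 ± 79.8, 1712 ± 84.2 and 1762 ± 526 CPM, and complex V, most of it ATPsynC and ATPsynbeta, held 7044 ± 772, 8946 ± 1095 and 8985 ± 1032 CPM (SD, n = 3). These medians and sums leave out subunits that carry other names. The F1 subunit blw alone held 2197, 2916 and 2666 CPM in the same order, more than ATPsynbeta at 1827, 2224 and 1981. Cype and levy of complex IV are also left out. The summed level of complex IV was higher in every heterozygous library (1634 to 1802 CPM) than in any control library (1170 to 1323), whereas the homozygous libraries spread from 1312 to 2340.

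**Figure D1:**
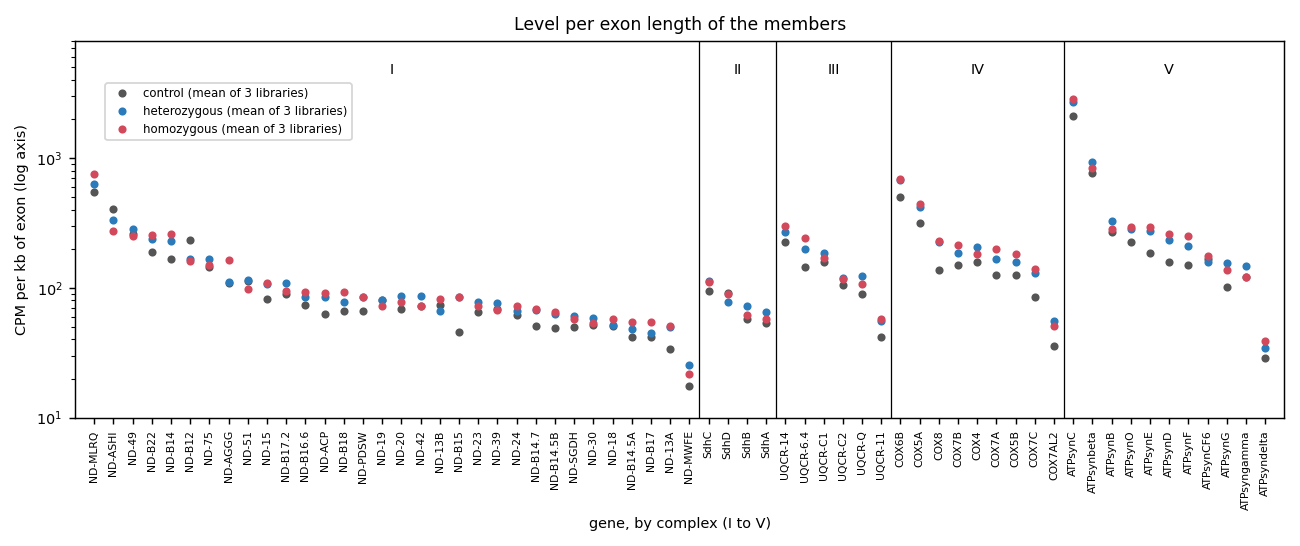
Level of each of the 62 members in CPM per kb of exon (log axis), ordered within complexes I to V; each point is the mean of the 3 libraries of a group. ATPsynC stands highest at 2558 over all libraries and ND-MWFE lowest at 21.5.

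The comparison of homozygous with control flies asked which respiratory chain transcripts differ in flies with the Ime4 allele on both chromosomes. Most members were higher in homozygous flies by a small amount. Of the 62, 14 rose and 1 fell by edgeR's quasi-likelihood test (adjusted p under 0.05). Among all 8972 genes tested, 10.9% were called higher and 8.77% lower. Members are mostly short genes, and short genes were called higher more often. In the shortest decile of exon length 21.9% of all genes were called higher, against 36.7% of the 30 members there. The next decile had 17.4% of all genes and 21.4% of 14 members. With offsets for exon length, 4 of the 15 called members kept their call, 1 of them the lower one. With only the 2 groups compared in the fit, 8 of the 15 kept it. Lost calls listed below for single members are those of fits without 1 library, unless another fit is named. Members had a median log2 fold change of 0.364 against 0.021 over all genes, and 54 of 62 had a positive one. In 17 members, or 27.4%, the 3 homozygous libraries were all above the control libraries and in 2 all below, against 17.9% and 15.9% of all genes. By complex, complex I had 7 members higher and 1 lower of 32 (median 0.276), complex II none of 4 (median 0.107), complex III 1 of 6 (0.335), complex IV 3 of 9 (0.514) and complex V 3 of 11 (0.421). With 1 library left out, 639 to 1329 of all genes were called higher, against 978 with all libraries. The number of members called higher also rested on single libraries. It was 8, 4 and 7 without control replicate 1, 2 or 3, 10 without homozygous replicate 1, 4 without homozygous replicate 2 (7.84% of all genes then) and 33 without homozygous replicate 3 (14.5% of all genes then).

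**Figure D2:**
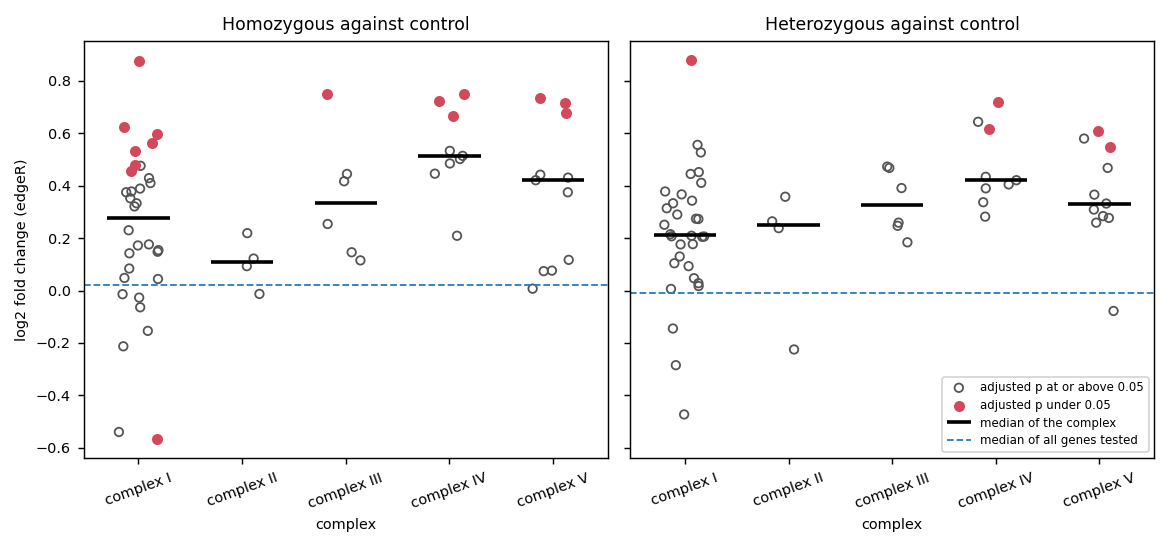
Log2 fold change (edgeR) of each member in complexes I to V for homozygous against control (left) and heterozygous against control (right). Filled points passed adjusted p under 0.05, bars are medians of a complex and the dashed line is the median of all genes tested, 0.021 and -0.010; complex IV has the highest median in both panels, 0.514 and 0.421.

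In complex I the calls fell among the accessory subunits, which surround the catalytic core and do not carry electrons. Of 25 accessory members 7 rose and 1 fell (median 0.375), while none of the 7 core members passed the test (median 0.048, range -0.213 to 0.230). Over all genes 10.9% were called higher and 8.77% lower, so 0 of 7 core members was near the background. The difference between core and accessory subunits was not tested. The core members had a median exon length of 1336 bases and the accessory members of 807.

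ND-B15 (FBgn0033961, 2R:14756516-14757072), the counterpart of mammalian NDUFB4 in the membrane arm, had 21.2, 18.7 and 25.8 CPM in the controls, 33.9, 31.9 and 55.6 in heterozygous libraries and 41.2, 48.3 and 31.4 in homozygous libraries. Every library of both allele groups was above every control library. It rose by a log2 fold change of 0.88 ± 0.23 in homozygous flies (edgeR adjusted p = 0.0175). The call was lost without control replicate 1 or 2 or homozygous replicate 2, at edgeR adjusted p = 0.0618, 0.0865 and 0.0712. ND-AGGG (FBgn0058002, 3L:24976254-24977118), the NDUFB2 counterpart, had 76.2, 72.7 and 91.8 CPM in the control libraries, 84.2, 74.8 and 89.9 in the heterozygous and 128, 144 and 92.0 in the homozygous ones. Its heterozygous libraries lay within the control range, and homozygous replicate 3 exceeded the highest control library only just. Its fold change was 0.60 ± 0.16 (edgeR adjusted p = 0.0194), lost without control replicate 1 or 2 or homozygous replicate 1 or 2, at 0.0702 to 0.0922. ND-B14 (FBgn0033570, 2R:10897144-10897885), the NDUFA6 counterpart, had 97.3, 110 and 100 CPM in control heads, 120, 125 and 176 in heterozygous heads and 152, 197 and 126 in homozygous heads. It rose by 0.62 ± 0.18 (edgeR adjusted p = 0.0235), and 12.9% of its exon length lies opposite CG12942. The call was lost without any one control library or homozygous replicate 1 or 2, at edgeR adjusted p = 0.0519 to 0.113.

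The other complex I members that rose were ND-13A (0.56 ± 0.18, NDUFS6 in mammals), ND-ACP (0.53 ± 0.16), ND-MLRQ (0.48 ± 0.15) and ND-B22 (0.46 ± 0.14, NDUFB9 in mammals). ND-ACP is the mitochondrial acyl carrier protein, which also serves fatty acid and iron-sulfur cluster synthesis. ND-MLRQ had 321, 270 and 286 CPM in the controls, 328, 312 and 373 in heterozygous libraries and 361, 515 and 348 in homozygous libraries, and homozygous replicate 2 was far above the rest. ND-ACP had 52.0, 52.2 and 53.4 CPM in the control libraries, 66.5, 74.2 and 74.0 in the heterozygous and 74.3, 96.4 and 57.7 in the homozygous ones, with the controls close together and below all others. ND-B22 had 186, 154 and 150 CPM in control heads, 215, 196 and 206 in heterozygous heads and 223, 264 and 184 in homozygous heads, so homozygous replicate 3 fell just below control replicate 1, and 26.1% of its exon length lies opposite CG31855. ND-B18 just failed to pass at 0.48 ± 0.16 (edgeR adjusted p = 0.0557). ND-MWFE, lowest of all members per length, had 18.9, 13.3 and 12.3 CPM in the controls, 22.7, 19.6 and 21.4 in heterozygous libraries and 20.1, 19.8 and 15.3 in homozygous libraries, and did not pass (0.32 ± 0.21, edgeR adjusted p = 0.305). The calls of ND-13A, ND-ACP, ND-MLRQ and ND-B22 were kept in 6 to 8 of the 18 alternatives. Each was lost without control replicate 2 or 3, any one heterozygous library or homozygous replicate 2, at edgeR adjusted p = 0.0524 to 0.192. ND-13A, ND-ACP and ND-MLRQ were also lost without control replicate 1 (0.0558 to 0.1), and ND-B22 and ND-ACP without homozygous replicate 1 (0.0872 and 0.0769).

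A pair of accessory subunits of the membrane arm were lower than control in every library of the allele groups. ND-ASHI (FBgn0029888, X:6677262-6679118), the NDUFB8 counterpart, had 586, 552 and 545 CPM in the control libraries, 418, 491 and 473 in the heterozygous and 417, 451 and 269 in the homozygous ones. Every library of both allele groups was below every control library, and homozygous replicate 3 was lowest. It fell by 0.57 ± 0.16 on the log2 scale in homozygous flies (edgeR adjusted p = 0.0252), and the call was lost without control replicate 1, 2 or 3, at edgeR adjusted p = 0.0795, 0.0683 and 0.0544. ND-B12 (FBgn0034645, 2R:21658078-21658777), the NDUFB3 counterpart, had 127, 132 and 162 CPM in control heads, 90.3, 104 and 110 in heterozygous heads and 104, 124 and 63.0 in homozygous heads. Here too no library of the allele groups reached the lowest control library. Its log2 fold change of -0.54 ± 0.20 did not pass (edgeR adjusted p = 0.068). It passed with DESeq2, with no filter on low counts and with exon length offsets.

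**Figure D3:**
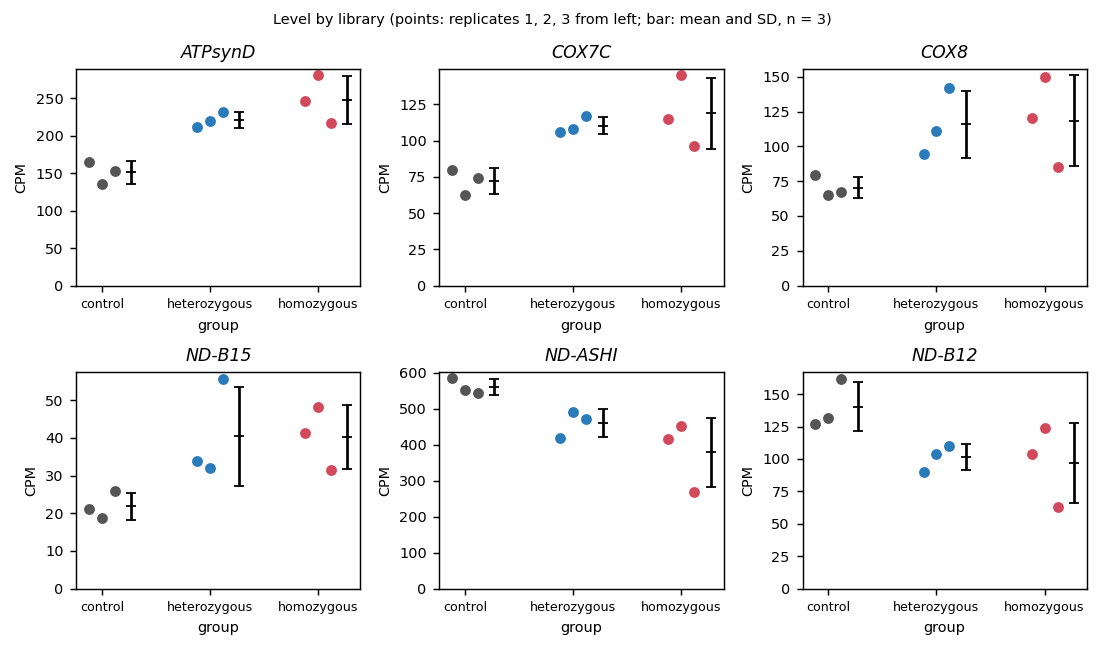
CPM in each library (points, replicates 1 to 3 from left to right in each group) with mean and SD (n = 3) for ATPsynD, COX7C, COX8, ND-B15, ND-ASHI and ND-B12. For the first 4 genes both allele groups lie above all control libraries, for example at 211 to 281 against 135 to 165 CPM for ATPsynD, and for ND-ASHI and ND-B12 below them.

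Among the core subunits, ND-75, which holds iron-sulfur clusters of the electron path, had 369, 362 and 407 CPM in the controls, 399, 474 and 441 in heterozygous libraries and 400, 469 and 305 in homozygous libraries. Its log2 fold change in homozygous flies was 0.04 ± 0.15 (edgeR adjusted p = 0.869). ND-51, which binds NADH and FMN, had 178, 156 and 203 CPM in the control libraries, 183, 174 and 190 in the heterozygous and 150, 172 and 141 in the homozygous ones, with a log2 fold change of -0.21 ± 0.13 (edgeR adjusted p = 0.255). The control and homozygous libraries overlapped for each of the 7 core members.

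Complex II, the link to the citric acid cycle, held no called member in the 3-group fit in any comparison. SdhB was called higher in heterozygous than control flies when only these 2 groups were fitted (0.36, edgeR adjusted p = 0.0414) and without homozygous replicates 1 and 2 (0.37, edgeR adjusted p = 0.0402). The latter fit leaves 1 homozygous library, replicate 3. Its log2 fold change for SdhB against heterozygous flies was -0.58, and that of the 3-group fit was -0.236. The flavoprotein SdhA had 165, 135 and 143 CPM in control heads, 188, 155 and 189 in heterozygous heads and 140, 167 and 165 in homozygous heads. The iron-sulfur subunit SdhB had 76.5, 62.4 and 69.5 CPM in the controls, 88.9, 87.6 and 90.2 in heterozygous libraries and 69.7, 96.1 and 61.1 in homozygous libraries. Of the membrane anchors, SdhC had 86.2, 80.9 and 91.5 CPM in the control libraries, 104, 99.1 and 101 in the heterozygous and 91.3, 126 and 84.4 in the homozygous ones. SdhB and SdhC were thus higher in all heterozygous than in all control libraries, whereas the homozygous libraries overlapped with control. The other anchor, SdhD, had 77.3, 88.0 and 77.2 CPM in control heads, 62.6, 84.3 and 60.5 in heterozygous heads and 81.9, 103 and 56.2 in homozygous heads. Log2 fold changes in homozygous flies lay between -0.013 for SdhD and 0.219 for SdhC, with edgeR adjusted p of 0.317 or more, and in heterozygous flies between -0.225 for SdhD and 0.358 for SdhB, with edgeR adjusted p of 0.189 or more.

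In complex III the 1 call was UQCR-6.4 (FBgn0034245, 2R:17572096-17572784), the counterpart of the small mammalian subunit UQCR11. It had 66.1, 86.0 and 90.1 CPM in the controls, 104, 129 and 104 in heterozygous libraries and 127, 178 and 105 in homozygous libraries, and all libraries of both allele groups were above control. It rose in homozygous flies by 0.75 ± 0.18 (edgeR adjusted p = 0.0112), lost without control replicate 1 or homozygous replicate 2 at 0.0607 and 0.0543, and 40.5% of its exon length lies opposite POSH. UQCR-11, the hinge protein, had 66.9, 75.8 and 60.1 CPM in the control libraries, 91.2, 84.8 and 90.2 in the heterozygous and 83.1, 115 and 78.3 in the homozygous ones, both without overlap with control. Its log2 fold change of 0.45 ± 0.15 in homozygous flies just failed to pass (edgeR adjusted p = 0.0551). UQCR-14, the UQCRB counterpart, had 120, 105 and 128 CPM in control heads, 144, 130 and 148 in heterozygous heads and 133, 220 and 118 in homozygous heads, and homozygous replicate 3 lay within the control range. UQCR-Q, a small subunit near the core, had 94.7, 76.1 and 89.5 CPM in the controls, 113, 126 and 121 in heterozygous libraries and 92.2, 133 and 84.9 in homozygous libraries, so it stood clear of control in heterozygous flies alone. The core proteins UQCR-C1 and UQCR-C2 had log2 fold changes of 0.12 ± 0.12 and 0.15 ± 0.14 (edgeR adjusted p = 0.534 and 0.496).

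Complex IV had the highest median of the 5 complexes, and all 9 members had a positive fold change. COX7A (FBgn0040529, 3R:8339944-8341043) had 86.6, 90.0 and 87.4 CPM in the control libraries, 116, 118 and 115 in the heterozygous and 155, 154 and 110 in the homozygous ones. The control and heterozygous libraries each agreed closely, and all libraries of the allele groups were above control. It rose in homozygous flies by 0.67 ± 0.14 (edgeR adjusted p = 0.0039). COX7C (FBgn0040773, 2R:10048353-10050066) had 79.9, 62.2 and 73.9 CPM in control heads, 106, 108 and 117 in heterozygous heads and 115, 145 and 96.6 in homozygous heads, again without overlap. It rose by 0.73 ± 0.15 (edgeR adjusted p = 0.00483), and 15.7% of its exon length lies opposite oys. COX8 (FBgn0263911, 3L:21538859-21539447) had 79.1, 65.3 and 66.9 CPM in the controls, 94.5, 111 and 142 in heterozygous libraries and 120, 150 and 84.9 in homozygous libraries, with no overlap with control. It rose by 0.75 ± 0.20 (edgeR adjusted p = 0.0161), which did not hold without control replicate 2 or 3 or homozygous replicate 2, at 0.0632 to 0.0777. These 3 are small single-span subunits around the catalytic core. The calls of COX7A and COX7C were kept in 17 of 18 alternatives and lost only without both homozygous replicates 1 and 2 (edgeR adjusted p = 0.203 and 0.121).

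COX5B, the zinc-binding matrix subunit, had 84.0, 85.4 and 105 CPM in the control libraries, 114, 107 and 126 in the heterozygous and 121, 180 and 97.6 in the homozygous ones, and its log2 fold change of 0.53 ± 0.19 did not pass (edgeR adjusted p = 0.0612). COX6B, highest of the complex per length, had 430, 377 and 381 CPM in control heads, 482, 589 and 535 in heterozygous heads and 491, 743 and 386 in homozygous heads, with homozygous replicate 2 alone far above the rest. COX7AL2, the paralog and the lowest of the complex per length, had 43.5, 28.9 and 29.0 CPM in the controls, 54.1, 51.2 and 52.0 in heterozygous libraries and 37.4, 67.9 and 39.2 in homozygous libraries. COX7B and COX5A, at 0.50 ± 0.20 and 0.49 ± 0.19, did not pass either (edgeR adjusted p = 0.0963 and 0.0826). COX4, which was clear of control in heterozygous libraries (237 to 283 against 182 to 215 CPM), had the smallest homozygous log2 fold change of the complex, 0.21 ± 0.18 (edgeR adjusted p = 0.446).

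In complex V the calls lay in the membrane and stalk parts. Of 8 such members 3 rose (median 0.437), and of the 3 members of the F1 head none did (median 0.117). Over all genes 10.9% were called higher. The difference between these parts was not tested. The 3 F1 members had exon lengths of 1460 to 3817 bases, and the membrane and stalk members 615 to 950, apart from ATPsynC at 1868. The symbol rule leaves out the F1 subunits blw (alpha) and sun (epsilon). Their log2 fold changes in homozygous flies were 0.28 ± 0.15 and -0.55 ± 0.15. ATPsynD (FBgn0016120, 3R:19095000-19096271), subunit d of the peripheral stalk that holds the head still, had 165, 135 and 153 CPM in the control libraries, 211, 220 and 232 in the heterozygous and 246, 281 and 217 in the homozygous ones. Every library of the allele groups was above every control library. It rose by 0.72 ± 0.13 in homozygous flies (edgeR adjusted p = 0.00154) and was the only member called under all 18 alternatives, at log2 fold changes of 0.46 to 0.80. ATPsynF (FBgn0035032, 2R:24599088-24599821) had 105, 86.8 and 85.7 CPM in control heads, 124, 146 and 113 in heterozygous heads and 144, 200 and 117 in homozygous heads, without overlap with control. It rose by 0.74 ± 0.18 (edgeR adjusted p = 0.0105), lost without control replicate 2 or 3 at 0.0561 and 0.0501. ATPsynE (FBgn0038224, 3R:14326947-14327735) had 158, 99.1 and 143 CPM in the controls, 192, 199 and 206 in heterozygous libraries and 183, 271 and 186 in homozygous libraries. It rose by 0.68 ± 0.18 (edgeR adjusted p = 0.0167), lost without control replicate 2 or homozygous replicate 2 at 0.0846 and 0.0781. Subunits e and g are known to hold ATP synthase dimers together at the edges of cristae, with f beside them in the membrane.

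ATPsynC (FBgn0039830, 3R:31216145-31219630) had 4528, 3772 and 3493 CPM in the control libraries, 5098, 4202 and 5899 in the heterozygous and 4970, 5752 and 5296 in the homozygous ones. The homozygous libraries lay above all controls, and the log2 fold change of 0.44 ± 0.15 just failed to pass (edgeR adjusted p = 0.0505). ATPsynbeta had 2049, 1678 and 1753 CPM in control heads, 2223, 2027 and 2423 in heterozygous heads and 1815, 2297 and 1831 in homozygous heads, which overlapped with control (log2 fold change 0.12 ± 0.14, edgeR adjusted p = 0.587). ATPsyngamma, the rotating shaft, had 173, 158 and 194 CPM in the controls, 215, 197 and 239 in heterozygous libraries and 147, 242 and 140 in homozygous libraries, so homozygous replicates 1 and 3 were below and replicate 2 above every control library. ATPsyndelta, lowest of the complex per length, had 123, 100 and 109 CPM in the control libraries, 122, 136 and 139 in the heterozygous and 126, 194 and 124 in the homozygous ones (0.42 ± 0.16, edgeR adjusted p = 0.0884), and 35.6% of its exon length lies opposite CG2962. The stalk subunit ATPsynO stood at 0.38 ± 0.16 (edgeR adjusted p = 0.105), whereas ATPsynB and ATPsynCF6, also of the stalk, were at 0.07 ± 0.17 and 0.08 ± 0.15 (edgeR adjusted p = 0.805 and 0.76).

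The comparison of heterozygous with control flies, which used the same control libraries, asked what 1 copy of the allele goes with. Here 5 of 62 members rose and 0 fell, against 5.55% and 3.77% of all genes, so the share called, 8.06%, was near the background. The median log2 fold change was 0.287 against -0.010 over all genes, 57 of 62 were positive, and 36 members were higher in every heterozygous than in every control library and 2 lower, against 16.1% and 15.6% of all genes. By complex, 1 of 32 rose in complex I (median 0.212), 0 of 4 in complex II (0.251), 0 of 6 in complex III (0.325), 2 of 9 in complex IV (0.421) and 2 of 11 in complex V (0.332). Without overlap and higher were 14 of 32, 2 of 4, 5 of 6, 8 of 9 and 7 of 11 members. The heterozygous libraries were close to each other: the median SD of log2 CPM over members was 0.120 in heterozygous, 0.151 in control and 0.335 in homozygous libraries, against 0.169, 0.205 and 0.224 over all genes.

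The members that rose in heterozygous flies were ND-B15 (0.88 ± 0.23, edgeR adjusted p = 0.0313), COX8 (0.72 ± 0.20, 0.0358), COX7C (0.62 ± 0.15, 0.0225), ATPsynG (0.61 ± 0.18, 0.0490) and ATPsynD (0.55 ± 0.13, 0.0144). ATPsynG (FBgn0010612, 2L:10975522-10976399), subunit g, had 75.8, 69.8 and 93.3 CPM in the control libraries, 119, 108 and 138 in the heterozygous and 111, 133 and 78.3 in the homozygous ones. Its heterozygous libraries were all above control, and homozygous replicate 3 fell back among the controls. ND-13A, with 32.0, 34.6 and 30.5 CPM in control and 43.2, 49.6 and 50.1 in heterozygous libraries, and UQCR-Q were separate from control but did not pass (edgeR adjusted p = 0.0663 and 0.0884). ND-ASHI and ND-B12 were lower in all heterozygous libraries, at log2 fold changes of -0.29 ± 0.16 and -0.47 ± 0.20 (edgeR adjusted p = 0.317 and 0.162). With 1 library left out, 220 to 813 of all genes were called higher, against 498 with all libraries. Of the members, 2, 0 and 1 were called higher without control replicate 1, 2 or 3. Without heterozygous replicate 1, 2 or 3 the numbers were 3, 1 and 0. ATPsynD, the steadiest, was lost without control replicate 2 or heterozygous replicate 2 or 3, at edgeR adjusted p = 0.0539 to 0.0832. ATPsynG failed to pass when any 1 of the control or heterozygous libraries, or homozygous replicate 1, was left out, at 0.055 to 0.199.

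How many heterozygous members passed changed when homozygous libraries were left out of the fit, which alters the spread estimate, the scaling and the genes tested together. With all 3 out, 23 of 62 rose and 1, ND-B12, fell, against 8.97% and 6.93% of the 8614 genes then tested. Without homozygous replicate 2 alone 13 rose, against 5.81% of all genes, and without homozygous replicate 3 alone 20 rose, against 8.89%. The median log2 fold change stayed between 0.287 and 0.288 in these 3 fits.

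Between homozygous and heterozygous flies 0 of 62 members passed edgeR's test in either direction, against 3.38% called higher and 2.11% lower of all genes, and 1 member, ND-AGGG, was under an unadjusted p of 0.05. The median log2 fold change was 0.019, the same as over all genes within rounding (0.020). ND-AGGG and ND-13B were higher in every homozygous than in every heterozygous library and ND-51 was lower, against 13.0% and 12.9% of all genes without overlap. ND-AGGG, at 0.55 ± 0.16 (edgeR adjusted p = 0.0613), was also the 1 member that DESeq2 and edgeR without a filter called, and without homozygous replicate 3 it passed at 0.72 (edgeR adjusted p = 0.00104). The absence of calls does not show equal levels.

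**Figure D4:**
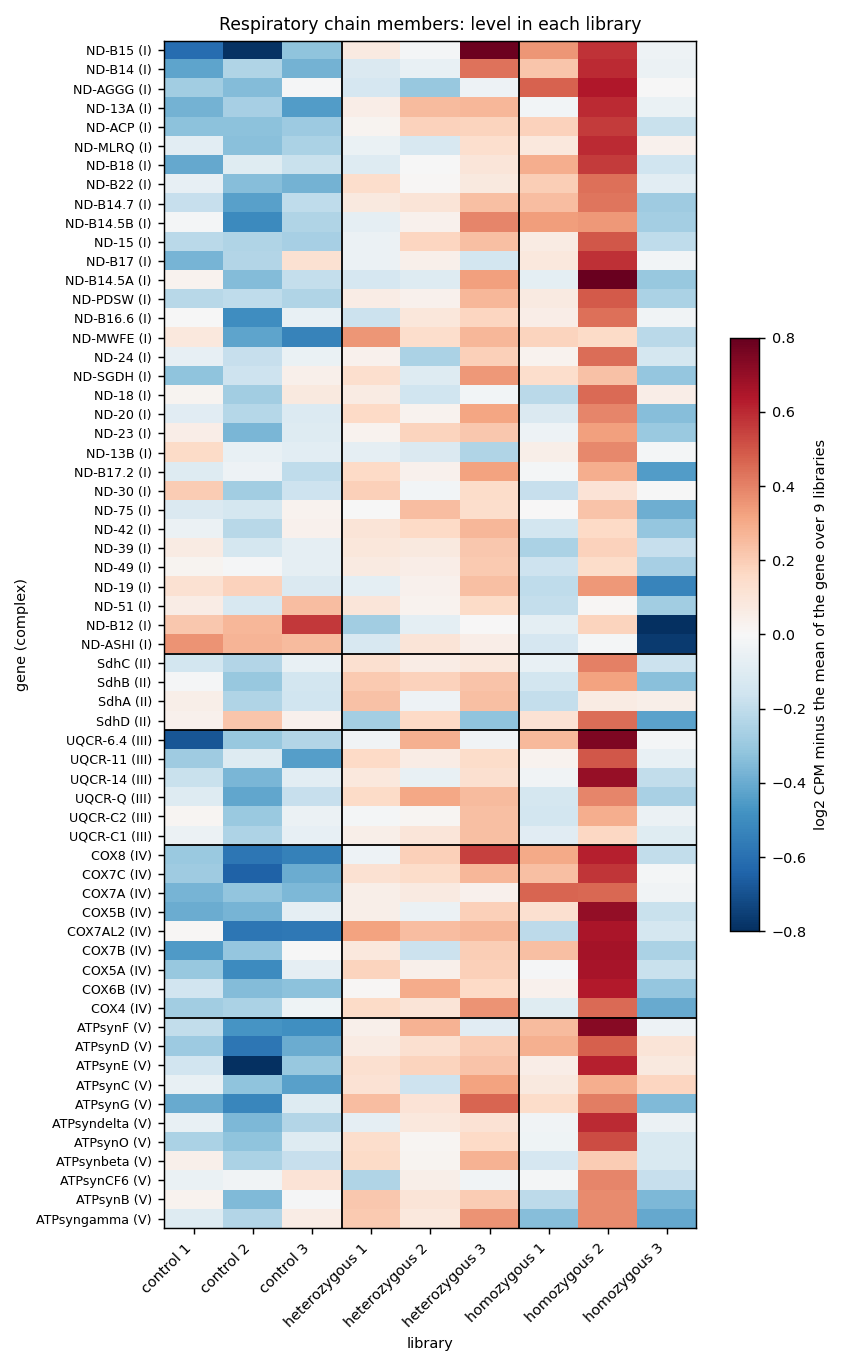
Level of each of the 62 members (rows, by complex and by fold change) in each of the 9 libraries (columns), as log2 CPM minus the mean of the gene over the 9 libraries. Homozygous replicate 2 is the highest of its group in 60 members and replicate 3 the lowest in 53, while ND-B12 and ND-ASHI are highest in the control libraries.

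The homozygous libraries disagreed among themselves in the same way across most of the chain. Homozygous replicate 2 was the highest of its group in 60 of 62 members, and of all 9 libraries in 43, while homozygous replicate 3 was the lowest of its group in 53. Over all genes these libraries were highest and lowest of their group in 33.3% and 40.5%. Relative to the control mean, the median member stood at log2 0.194 in homozygous replicate 1, 0.631 in replicate 2 and 0.017 in replicate 3, and at 0.283, 0.232 and 0.383 in the heterozygous libraries. A fit without homozygous replicates 1 and 2 leaves 1 homozygous library, assumed to vary like the other groups. In it 1 member (ATPsynD) was higher and 3 (ND-B12, ND-19 and ND-ASHI) were lower than control, against 7.10% and 6.02% of all genes, with a median of -0.009. Against heterozygous flies 11 were then lower, against 3.99% of all genes.

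Markers of some other cell types moved with these libraries. In homozygous against control flies 10.9% of all genes were called higher and 8.77% lower. In heterozygous against control flies these shares were 5.55% and 3.77%, and in homozygous against heterozygous flies 3.38% and 2.11%. Of 18 muscle markers tested, none at 0 reads, 11 were called higher and 0 lower in heterozygous against control flies, 3 and 0 in homozygous against control, and 0 and 7 in homozygous against heterozygous flies. Their summed level was 30717 to 34912 CPM in control, 52116 to 55375 in heterozygous and 32210 to 43848 in homozygous libraries, highest of its group in homozygous replicate 2 at 43848. Digestive tract markers summed to 607 and 747 CPM in homozygous replicates 1 and 2, 64.7 in replicate 3 and 20.8 to 72.4 in the other 6 libraries, with 6 of 7 tested called higher in homozygous against control flies and Jon66Ci and gammaTry at 0. Fat body markers summed to 9550 and 9237 CPM in homozygous replicates 1 and 2 and 3722 in replicate 3, against 4360 to 6377 in control and 7338 to 11312 in heterozygous libraries, with 4 of 8 called higher and none lower in each allele group against control. Ovary markers summed to 344 CPM in control replicate 3 and at most 3.06 elsewhere, and testis markers to at most 3.72 in any library. Of 9 neuron markers 3 were called lower and 0 higher in each allele group against control, and of 13 photoreceptor markers 4 were lower and 1 higher in homozygous and 1 lower and 3 higher in heterozygous flies. Of 10 glial markers 1 was higher in each group and 1 lower in homozygous flies, near the shares of all genes. Reads that matched no counted feature of any gene made up 26.2% to 31.7% of all reads in the count table in control libraries. They made up 19.1% to 28.4% in heterozygous and 17.2% to 20.04% in homozygous libraries. Reads without a unique position made up 15.1% to 16.0%, 10.54% to 14.01% and 8.96% to 12.3% in the same order. The part of these markers and shares in the respiratory chain differences was not tested, and in whole heads fewer cells of a type and less RNA per cell cannot be told apart.

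Exon length also moved with the fold changes. Members are short genes: their median exon length was 880 bases (range 417 to 3817) against 2216 over the 8792 tested genes with a length, and 58 of 62 were under that median. Across all genes, which are not independent replicates, the median log2 fold change in homozygous against control flies ran from 0.334 in the shortest decile (861 bases or fewer) to -0.184 in the longest. The shortest decile held 30 of the members. Their median was 0.439 and 11 of them were called higher, or 36.7%, against 0.334 and 21.9% of all genes of that length. In the next decile (862 to 1204 bases) 14 members had a median of 0.316 with 3 called higher, or 21.4%, against 0.251 and 17.4%. The 15 members over 1300 bases had a median of 0.093 and 0 called higher. In the deciles from 1206 to 4328 bases, which hold these members, 6.26% to 13.6% of all genes were called higher. The medians of all genes there were 0.149 to -0.089, so 0 of 15 was near the background. For heterozygous against control flies the 30 shortest members had a median of 0.360 against 0.140 of all genes of that length. Spearman's rho between exon length and fold change across genes was -0.469 over members and -0.298 over all genes for homozygous against control flies, and -0.219 and -0.189 for heterozygous against control flies.

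**Figure D5:**
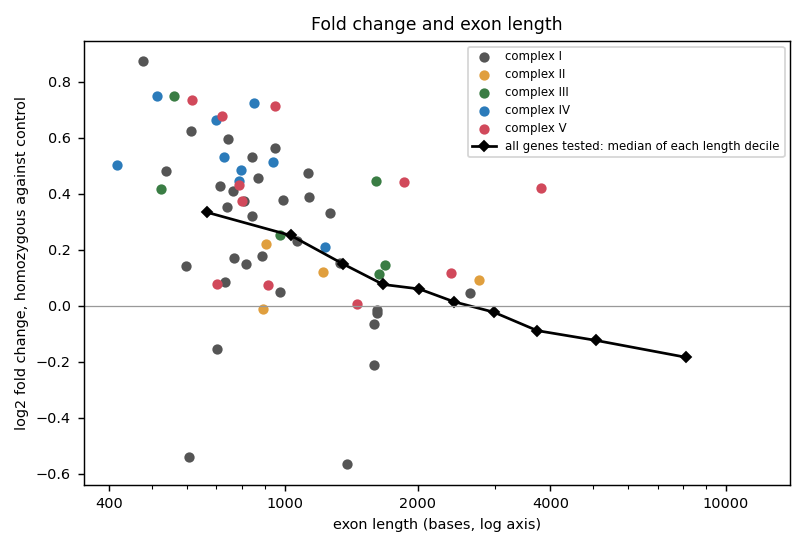
Log2 fold change of homozygous against control flies for each member by exon length in bases (log axis), coloured by complex; diamonds joined by a line are the medians of all tested genes in deciles of exon length. The line falls from 0.334 to -0.184. No member longer than 953 bases was called higher, against 6.26% to 13.6% of all genes in the deciles from 1206 to 4328 bases.

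With offsets that remove each library's own trend of counts on exon length, 3 members were called higher (COX7C, COX7A and ATPsynD) and 4 lower (ND-51, ND-B12, ND-19 and ND-ASHI) in homozygous flies, against 9.09% and 9.36% of all genes, and the median fell to 0.050. In heterozygous flies 2 were higher (COX7C and ATPsynD) and 1 lower (ND-B12), against 5.77% and 4.21% of all genes, and the median was 0.211. The trend per doubling of exon length was 0.0416 to 0.0986 log2 CPM in control, -0.0254 to 0.0131 in heterozygous and -0.0833, -0.147 and 0.024 in homozygous replicates 1, 2 and 3, so the libraries with the most negative trends were homozygous replicates 1 and 2.

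Members varied together over the libraries. How often other genes do so was not counted, so the pattern is not shown to be particular to the chain. As a description over 9 libraries that share group and preparation, the Pearson correlation of a member's log2 CPM with the mean of the other members had a median of 0.835 and was over 0.7 for 46 of 62. It was highest for ND-PDSW at 0.971 and ATPsynO, the stalk subunit that carries oligomycin sensitivity, at 0.958. It was under 0 for 2 members, ND-ASHI at -0.063 and ND-B12 at -0.007. SdhD and ND-51 followed at 0.259 and 0.258. Outside the set, the genes whose levels were most like the mean of the members were Gld at 0.957, levy at 0.956 and mRpS9 at 0.946 over the 9 libraries. Gld encodes glucose dehydrogenase, levy a subunit of cytochrome c oxidase under another name and mRpS9 a protein of the mitochondrial ribosome. Levy had 103, 92.0 and 106 CPM in control heads, 134, 144 and 149 in heterozygous heads and 134, 192 and 121 in homozygous heads, with homozygous replicate 2 highest.

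Other genes of the pathway were counted from lists. Of 8 tested subunits that carry other names, 3 rose and 1 fell in homozygous against control flies (median 0.393). The share higher was 37.5%, against 10.9% higher and 8.77% lower of all genes. Cype and levy, both of complex IV, rose by 0.88 ± 0.15 and 0.57 ± 0.16 (edgeR adjusted p = 0.00144 and 0.0202) and Neb-cGP rose by 0.69 ± 0.17 (edgeR adjusted p = 0.0126). Sun, the epsilon subunit of F1, fell by 0.55 ± 0.15 on the log2 scale (edgeR adjusted p = 0.0196), from 320 ± 41.1 CPM in control to 219 ± 46.0 (SD, n = 3). In heterozygous flies 1 of the 8 rose, cype at 0.55 ± 0.15 (edgeR adjusted p = 0.0377), and ox, a small subunit of complex III, fell by 0.56 ± 0.16 on the log2 scale (edgeR adjusted p = 0.0389). Of all genes 5.55% were called higher and 3.77% lower in heterozygous flies. Levy and Neb-cGP were lost without control replicate 2 or homozygous replicate 2 (edgeR adjusted p = 0.0598 to 0.0932), levy also without control replicate 1 (0.0534) and sun without control replicate 3 (0.0847). The heterozygous call of cype went when any 1 of the control or heterozygous libraries was dropped (0.0545 to 0.177) and that of ox without any of these but control replicate 2 (0.105 to 0.144). Of 20 assembly factors 1 (5.0%, below the shares of all genes) rose and 0 fell in each allele group against control. In both this was Sirup, an assembly factor of succinate dehydrogenase, with 92.9, 58.2 and 88.6 CPM in the controls, 215, 172 and 143 in heterozygous libraries and 229, 253 and 125 in homozygous libraries. No library of the allele groups overlapped with control, and its log2 fold changes of 1.34 ± 0.25 and 1.15 ± 0.25 (edgeR adjusted p = 0.00207 in homozygous and 0.0104 in heterozygous flies) were larger than those of any member. The heterozygous call was lost without control replicate 2 or heterozygous replicate 1 (0.0661 and 0.0581).

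Of 15 citric acid cycle and pyruvate dehydrogenase genes 2 rose and 1 fell in homozygous flies (median 0.015). On this list and the next 2, 13.3%, 6.25% and 11.1% were called higher, near or below the 10.9% of all genes. Called lower were 8.77% of all genes. Mpc1, a subunit of the mitochondrial pyruvate carrier, rose by 0.77 ± 0.13 (edgeR adjusted p = 0.00137) and ScsbetaA, a subunit of succinyl-CoA synthetase, by 0.49 ± 0.11 (edgeR adjusted p = 0.00698). CG7430 fell by 0.66 ± 0.14 on the log2 scale (edgeR adjusted p = 0.00536). Of 16 genes of mitochondrial protein import 1 rose, Tom7 of the outer membrane translocase at 0.62 ± 0.14 (edgeR adjusted p = 0.00687), and 1 fell, CG11779 at -0.56 ± 0.13 (edgeR adjusted p = 0.00893). Of 18 regulators and carriers 2 rose and 2 fell (median -0.047). The outer membrane channel porin rose by 0.58 ± 0.12 and the ADP/ATP carrier sesB by 0.65 ± 0.16 (edgeR adjusted p = 0.0045 and 0.00991, the latter 0.0544 without control replicate 2). The transcription factor ewg, a relative of mammalian NRF1, and the mitofusin Marf fell by 0.59 ± 0.12 and 0.47 ± 0.11 on the log2 scale (edgeR adjusted p = 0.00323 and 0.011). In heterozygous flies 1 of 15, 0 of 16 and 0 of 18 genes of these 3 lists rose and none fell, against 5.55% and 3.77% of all genes. Against heterozygous flies, 3.38% of all genes were higher and 2.11% lower in homozygous flies. On these 5 lists 0 of 8, 0 of 20, 0 of 15, 1 of 16 and 0 of 18 genes were higher and 0, 1, 0, 0 and 2 lower. Of these, the assembly factor Uqcc1 was lower (edgeR adjusted p = 0.00966), a call kept in 17 of 18 alternatives. Tom7 was higher (edgeR adjusted p = 0.0334), and ewg and Marf were lower (0.0436 and 0.0313), calls kept in 9, 7 and 10 of 18 alternatives. Tom7 and Marf did not pass without control replicate 2, any 1 heterozygous library or homozygous replicate 1 or 2 (0.0522 to 0.151), and ewg passed without homozygous replicate 3 and failed without any 1 of the others (0.0547 to 0.181).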

How the data were processed

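Counts of reads per gene, 1 table per library, were deposited by the authors. Per the submitters' processing notes, CASAVA 1.8.4, STAR 2.4.0h, HTSeq 0.6.1, DESeq2 1.6.3 and build BDGP6 were used. Lines naming no gene (17.2% to 31.7% of reads matching no counted feature, 8.96% to 16.0% not unique) were left out of library sizes. Symbols, coordinates and exon lengths came from an Ensembl annotation of BDGP6 that held 17252 of 17558 gene IDs. Genes were filtered with filterByExpr (minimum count 10, total 15), which left 8972, scaled by TMM (factors 0.958 to 1.075) and tested in edgeR 4.0.16 (R 4.3.3) with the quasi-likelihood test on 3 group means, with Benjamini-Hochberg adjustment over all 8972 at 0.05. Every adjusted p is from edgeR unless another tool is named. DESeq2 1.42.0, limma 3.58.1 (voom) and other settings were alternatives. The scripts were tested on simulated data. Genes given with values in every library were the members with the lowest p per complex and comparison, those called lower, the highest and lowest per length, and all of complex II. Other members with values (such as ND-75, ND-51, ND-B12 and ATPsynbeta) were chosen after their values were seen. Members, lists, the rule for named genes and alternatives were chosen with earlier results of these data known.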

Additional observations from a re-analysis of the deposited data

How the results depend on the processing

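Of the 186 member fold changes under 18 alternatives, 3108 values kept their side of the threshold, 117 lost a call and 123 gained one. No called member changed sign, but medians over members did, as given below. Of the 15 members called in homozygous against control flies, 15 were kept with other size factors, with either other filter and with DESeq2, and 13 with limma-voom. Only 8 were higher and 0 lower when the fit held the 2 groups compared alone. With no filter and with DESeq2, 2 members were called lower.

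With exon length offsets, 3 members were higher and 4 lower, with medians of 0.050 over members and 0.024, 0.024, 0.186 and 0.114 in complexes I, III, IV and V. Without homozygous replicates 1 and 2, 1 was higher and 3 lower, with medians of -0.009 over members and -0.041, 0.015, 0.081 and 0.075 in complexes I, III, IV and V. Against heterozygous flies that fit gave 11 members and 376 genes lower, with medians of -0.333 over members and -0.389, -0.239, -0.352 and -0.156 in complexes I, III, IV and V. Length offsets there gave 293 genes lower, no filter gave 545 genes higher, and no filter and DESeq2 each gave 1 member higher. The cause of these shifts was not tested.

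In heterozygous against control flies 8 members were higher with no filter, 3 with limma-voom, 2 with length offsets, 23 with only the 2 groups compared and 23 without homozygous replicates 1 and 2. In each of the last 3 fits 1 was lower. All genes called numbered 773 higher and 597 lower with only the 2 groups, and 790 and 571 without homozygous replicates 1 and 2. Length offsets gave medians of 0.236 in complex III and 0.300 in complex IV.

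Leaving out 1 library at a time, homozygous against control flies had 4 to 33 members higher and 0 to 2 lower (639 to 1329 and 491 to 1148 of all genes), with medians of 0.130 to 0.468 over members and 0.046 to 0.386, -0.041 to 0.221, 0.052 to 0.462, 0.241 to 0.702 and 0.166 to 0.495 in complexes I to V. Heterozygous against control flies had 0 to 20 higher and 0 to 1 lower (220 to 813 and 142 to 629 of all genes), with medians of 0.242 to 0.359 over members and 0.170 to 0.286, 0.199 to 0.306, 0.284 to 0.338, 0.400 to 0.470 and 0.269 to 0.388 by complex. Homozygous against heterozygous flies had 0 to 3 higher and 0 to 1 lower (76 to 626 and 55 to 473 of all genes), with medians of -0.199 to 0.166 over members and -0.213 to 0.166, -0.225 to -0.009, -0.182 to 0.079, -0.190 to 0.220 and -0.125 to 0.161 by complex.

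Replicate numbers are shared by the groups, but deviations from the group means correlated at -0.0659 to 0.117 for libraries of the same number and -0.114 to 0.114 for others, so they were not taken as pairs. With the replicate block, 13 members were higher and 1 lower in homozygous, and 5 and 0 in heterozygous, against control flies, with medians of 0.345 and 0.292. With 3 libraries a group, depth and number limit which small changes could pass.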

Other observations

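The list of genes most like the mean of the respiratory chain members over the 9 libraries went on beyond the 3 named by rule with Gapdh1 (correlation 0.946), robl (0.939), Pdhb (0.938), Pglym78 (0.935), Tpi (0.930), CG12343 (0.929) and Etfb (0.917). Gapdh1, Pglym78 and Tpi encode enzymes of glycolysis and Pdhb a subunit of pyruvate dehydrogenase. Those given with values here were chosen after their values were seen. Gapdh1 had 421, 372 and 412 CPM in control heads, 542, 515 and 636 in heterozygous heads and 448, 726 and 463 in homozygous heads. Tpi had 114, 98.8 and 117 CPM in the controls, 155, 153 and 144 in heterozygous libraries and 151, 193 and 124 in homozygous libraries. For both, every library of the allele groups was above every control library, and homozygous replicate 2 was highest of all. These are descriptions with no test, over libraries that share group and preparation.

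Uqcc1, an assembly factor of complex III, was called different between the allele groups. It had 16.7, 20.2 and 20.2 CPM in the control libraries, 22.2, 28.0 and 26.6 in the heterozygous and 14.4, 13.4 and 13.6 in the homozygous ones, so the homozygous libraries were below all others. It fell by 0.89 ± 0.18 on the log2 scale in homozygous against heterozygous flies (edgeR adjusted p = 0.00966, and 0.0586 without heterozygous replicate 2).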
